A study of Mus musculus with 2 samples.

Results

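Ifng-positive CD4 T cells of the mouse small intestine were described here, 169 of 25120 immune cells kept from 2 droplet libraries. A cell was kept with at least 1000 unique molecular identifiers (UMIs, 1 per captured transcript), at least 500 genes and at most 10% of UMIs on mitochondrial genes. Members were selected on measured values, the UMIs of single genes. Each had a UMI of Cd3d, Cd3e or Cd3g, a UMI of Trac, a UMI of Cd4, Icos or Cd40lg, and at least 1 Ifng UMI. It had no UMI of Foxp3, Il17a, Il17f, Il22, Cd8a, Cd8b1, Trdc or Klrb1c, and under 15% of UMIs on immunoglobulin genes and Jchain. Both libraries came from female littermates aged 10 to 12 weeks that carried floxed Aster-A alleles, had been fasted for 16 h and had a 2 h olive oil challenge by gavage. Mononuclear cells came from the lamina propria, the tissue under the gut epithelium. Aster-A is the sterol transport protein encoded by Gramd1a. The control pool (Aster-A F/F, F/F below) held the floxed alleles alone, and the other pool (CD4-Cre; Aster-A F/F, CD4-Cre below) also held CD4-Cre, a transgene active in T cells that have passed through a Cd4-expressing stage, which includes CD8 T cells. From each of 3 mice per genotype, 100000 live CD45+ cells negative for CD31, EPCAM and Ter119 were sorted and pooled into 1 library, so a genotype is 1 sample and no difference between genotypes could be tested.

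Interferon gamma, the product of Ifng, is the defining cytokine of type 1 helper T cells and activates macrophages and epithelial cells through its receptor. T-bet (Tbx21) drives this program in CD4 T cells after interleukin 12 has signalled through its receptor chains Il12rb1 and Il12rb2 to STAT4. Interleukin 18, bound by Il18r1 and Il18rap, adds to it, and the chemokine receptors Cxcr3 and Cxcr6 guide such cells into tissue. Lamina propria T cells with an innate-like program, marked by PLZF (Zbtb16), also make interferon gamma quickly. Ifng RNA is short-lived and rises with stimulation, so a cell without an Ifng UMI can still be able to make the cytokine.

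Ifng lies at chr10:118441046-118445892 on the plus strand of GRCm38 and Tbx21 at chr11:97098071-97115331 on the minus strand, both protein-coding. T-bet recognises T-box letters, so the 250 bases before the RefSeq start (GRCm38.p6) of Ifng and of Xcl1, the lymphotactin gene with the smallest adjusted p among genes higher in members, were read on the sense strand. They cover chr10:118440796-118441045 for Ifng and chr1:164935523-164935772 for Xcl1, and capitals mark a match to TCACACC or, on the other strand, GGTGTGA.

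Ifng: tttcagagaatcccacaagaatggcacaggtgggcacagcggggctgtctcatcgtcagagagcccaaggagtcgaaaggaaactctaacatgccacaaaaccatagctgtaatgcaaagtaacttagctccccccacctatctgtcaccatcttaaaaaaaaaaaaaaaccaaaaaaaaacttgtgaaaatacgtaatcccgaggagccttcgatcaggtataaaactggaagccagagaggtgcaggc
Xcl1: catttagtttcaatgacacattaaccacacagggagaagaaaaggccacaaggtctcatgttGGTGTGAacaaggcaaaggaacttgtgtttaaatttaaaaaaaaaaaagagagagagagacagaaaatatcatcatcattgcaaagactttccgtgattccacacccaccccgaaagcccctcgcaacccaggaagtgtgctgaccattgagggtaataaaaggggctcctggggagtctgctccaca

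The Xcl1 stretch held 1 match and the Ifng stretch 0. Over windows of 300 bases that also take in the first 50 bases of the gene, 1070 of 27025 promoters (3.96%) held these letters. In the type 1 list it was 2 of 25 promoters found, those of Xcl1 and Nkg7. A match shows letters, not binding, and its absence says only that the letters are not in the window.

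The gate without its Ifng term held 459 F/F and 825 CD4-Cre cells. Of these, 69 F/F cells (15%, exact Clopper-Pearson 95% interval 11.9 to 18.6%) and 100 CD4-Cre cells (12.1%, 9.97 to 14.5%) had Ifng and became members, and the 390 and 725 others are called Ifng-negative. All values for the genes of the rule, Ifng and Cd4 among them, describe the choice of cells. Members mostly entered with little Ifng: 47 F/F and 64 CD4-Cre members had 1 Ifng UMI. The highest counts in 1 cell were 19 UMIs in the F/F pool and 7 in the CD4-Cre pool. Ifng was rare in cells that should lack it: it was seen in 0 of 75 and 0 of 120 B cells (up to 4.80 and 3.03% by the exact interval) at median depths of 16241 and 17748 UMIs. In plasma cells it was seen in 0.209 and 0.210%, against 14.1 and 14.8% of CD8 αβ T cells and 23.5 and 15.1% of NK and ILC1-like cells. Barcodes of 10 to 100 UMIs, which sample free RNA, gave 5.15 and 3.37 Ifng CPM (counts scaled to the library total).

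The gate took a minority of the Ifng transcripts. Kept cells held 623 Ifng UMIs in 406 F/F cells and 731 in 493 CD4-Cre cells, of which members held 118 and 176. Among T cells with Cd4, Icos or Cd40lg and Ifng (151 and 219 cells), 19.9 and 19.2% had a UMI of the NK receptor gene Klrb1c, 9.27 and 14.2% of Cd8a, 8.61 and 7.31% of Trdc, and 7.95 and 5.02% of Il17a, and all these were left out. A further 13 F/F and 19 CD4-Cre cells met every other term but had at least 15% immunoglobulin UMIs. The nearest of them stood at 29.6 and 17%, and the highest members at 11.7 and 7.98%.

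The label was only partly borne out by transcripts. Cd4, the coreceptor gene, was seen in 40 of 69 F/F members (58.0%) and 78 of 100 CD4-Cre members (78.0%), and the rest entered through Icos or Cd40lg, costimulatory genes that other T cells can express. The gap in Cd4 was as wide in Ifng-negative cells, at 263.9 (F/F) and 1061 CPM (CD4-Cre), against 183.9 and 994.2 CPM in members. Cd4 was also seen in 10.7 and 4.17% of B cells. Tbx21 was seen in 26.1% of F/F members (exact interval 16.3 to 38.1%) and 22% of CD4-Cre members (14.3 to 31.4%). Cxcr3 was seen in 17.4 and 24%. Neither Tbx21 nor Cxcr3 nor Zbtb16 was seen in 34 F/F members (49.3%) and 51 CD4-Cre members (51.0%). At a median of 4100 and 3761.5 UMIs a missing UMI does not show that a gene was off.

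Of other lineages, members had no UMI of the B cell gene Ms4a1 in either pool and, in the F/F pool, none of the myeloid genes Csf1r, Clec9a, Flt3 and Itgax or the NK gene Ncr1. In the CD4-Cre pool Clec9a was seen in 3 members and each of Csf1r, Flt3, Itgax and Ncr1 in 1. The B and plasma list summed to 35895 CPM in F/F members and 31641 in CD4-Cre members, against 38727 and 38404 in Ifng-negative cells, with 4 and 3 of its 19 genes at 0 in members. Jchain was seen in all members, as in all NK, CD8 and B cells counted. The myeloid list summed to 182 and 354 CPM in members against 833 and 605 in Ifng-negative cells, with 9 and 4 of its 18 genes at 0 in members. No doublet caller was run, and 15 of 69 and 20 of 100 members held a UMI of Cd79a, Ms4a1, Lyz2, C1qa, C1qb, Xcr1, Clec9a, Kit or Ncr1, against 16.9 and 16.4% of Ifng-negative cells. No member's barcode was a kept cell of the other library, although the libraries shared 47 barcodes of kept cells.

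Depth was uneven in the F/F pool. The libraries held 222838658 and 200580083 UMIs in all, and members 440369 and 421449. Ifng-negative cells had medians of 3556.5 and 3291 UMIs, somewhat below members. Mitochondrial shares were alike, with medians of 3.23 and 3.24% in members and 3.38 and 3.50% in Ifng-negative cells. However, 3 F/F members with 58196, 37430 and 31900 UMIs held 29.0% of all UMIs of F/F members, and no CD4-Cre member passed 20000. These cells showed 22, 20 and 21 of 22 proliferation genes, and the third held the 19 Ifng UMIs. The second had 11.7% immunoglobulin UMIs, the highest share among F/F members, and 4 UMIs of the B cell gene Cd79a. It held 1 Ifng and 1 Cd4 UMI, and whether it was a doublet was not tested. Results from summed UMIs are therefore given with all cells and, where the call or the size depended on it, without cells over 20000 UMIs, a limit chosen after the data were seen that also drops 3 F/F and 4 CD4-Cre Ifng-negative cells.

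**Figure D1:**
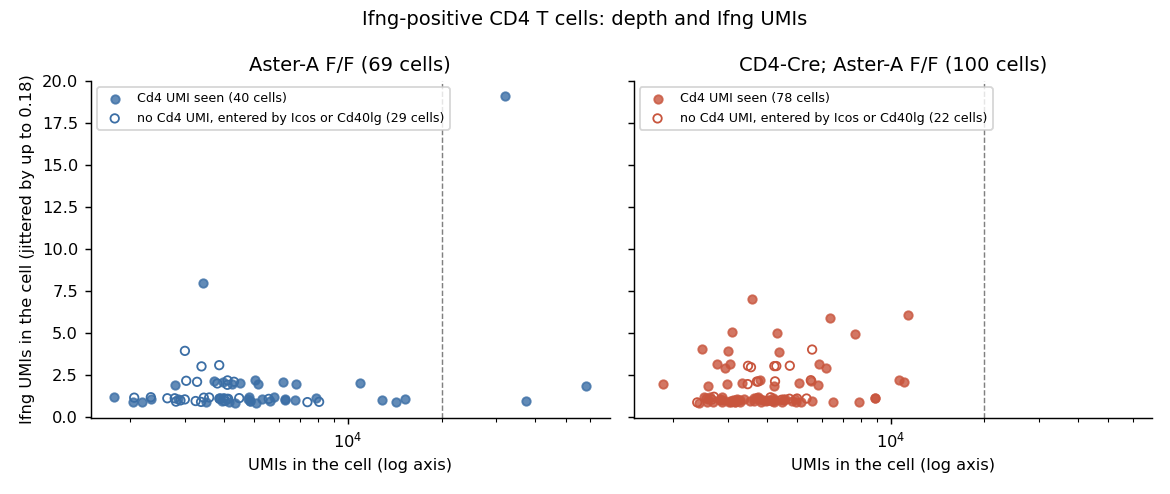
Each point is 1 member, with its UMIs on a log axis across and its Ifng UMIs upward, for the 69 F/F members (left) and the 100 CD4-Cre members (right). Filled points had a Cd4 UMI, open points did not, and the dashed line at 20000 UMIs has 3 F/F members and no CD4-Cre member to its right.

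To ask what else distinguished members, UMIs were summed over the positive and the negative cells of each pool and compared with edgeR's quasi-likelihood test, with the pool as a block (4 sums, 1 residual degree of freedom). Since 1 sum stands for a pool of 3 mice, the spread between mice does not enter the p-values. With 1 residual against 59.4 prior degrees of freedom, they rest mostly on a spread shared across genes. A gene's own spread between the 2 pools counts for little in them. Of 7870 genes outside the rule, 28 (0.356%) were higher and 45 (0.572%) lower in members at an adjusted p under 0.05 (Benjamini-Hochberg). Without cells over 20000 UMIs it was 60 (0.778%) and 83 (1.08%) of 7716, and 16 of the 28 and 44 of the 45 were called both times. A fit without the block called 0 genes in both directions (482 at an unadjusted p under 0.05), and DESeq2 called 1 higher and 6 lower.

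Several type 1 genes were seen in a larger share of members than of Ifng-negative cells, while their summed levels passed the test mainly without the deep cells. Nkg7, a granule membrane gene of T and NK cells, was seen in 92.8 against 68.7% of cells in the F/F pool and in 93.0 against 68.7% in the CD4-Cre pool. Its summed levels were 903.8 CPM in F/F members, 715.1 in F/F negatives, 1293 in CD4-Cre members and 828.4 in CD4-Cre negatives. Both member values lay above both negative values. The share of all tested genes that separate in this way was not counted, here or for the genes below. With so few sums, such separation is a description and not support for a difference. The edgeR log2 difference of Nkg7 was 0.50 (adjusted p = 0.567) with all cells and 0.60 (adjusted p = 1.72e-05) without the deep cells.

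Tbx21, the T-bet gene, had 63.6 and 104 CPM in F/F and CD4-Cre members and 36.8 and 40.1 CPM in negatives. Again no member value reached down to a negative one. Its log2 difference was 1.11 (adjusted p = 0.0752, edgeR) with all cells and 1.19 (adjusted p = 0.000747) without the deep cells. It was seen in 9.49 and 11.7% of negatives, less often than in members. With every cell thinned to 1500 UMIs the shares were 8.70 against 3.34% in the F/F pool and 12 against 5.83% in the CD4-Cre pool.

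Il12rb2, the inducible chain of the interleukin 12 receptor, was seen in 40.6 against 21.0% of F/F cells and 48.0 against 23.2% of CD4-Cre cells. It had 181.7 and 284.7 CPM in members and 122.3 and 128.5 in negatives. The groups did not overlap, which is again a description only. Its log2 difference of 0.88 missed the threshold with all cells (adjusted p = 0.0894, edgeR) and was 0.92 (adjusted p = 1.80e-05) without the deep cells. In B cells, at 16241 and 17748 median UMIs, Nkg7, Tbx21, Il12rb2, Cxcr6, Xcl1 and Zbtb16 were each seen in at most 4% of cells. Cxcr6, a receptor of tissue-resident T cells, was seen in 56.5 against 34.4% and 64 against 34.8%. Its 163.5 CPM in F/F members nearly equalled the 161.5 of F/F negatives, whereas the CD4-Cre values were 301.3 and 159.8. It was called only without the deep cells (log2 0.64, adjusted p = 0.00902, edgeR). The interleukin 18 receptor chain gene Il18rap (log2 0.82), the kinase gene Txk (0.81) and the chemokine genes Ccl5 (0.44) and Ccl4 (1.12) were likewise called without the deep cells and not with them. For Ccl4, 1 cell held 79.4% of the UMIs of F/F members. For Ccl5 the free RNA was rich, with 6627 and 6600 CPM in barcodes of 10 to 100 UMIs.

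Other members of the same pathway did not differ by the test. Cxcr3, the chemokine receptor gene that marks type 1 cells, was seen in 17.4 against 14.9% in the F/F pool and 24 against 18.9% in the CD4-Cre pool. Its log2 difference was 0.27 with all cells and 0.36 without the deep ones (adjusted p = 0.999 and 0.791, edgeR). Stat4, Runx3 and Il12rb1 had log2 differences of 0.11, 0.12 and 0.23, none called. Eomes, the T-box gene of memory CD8 and NK cells, was seen in 0 F/F and 1 CD4-Cre member, and Il2 in 1 and 0. Tnf was seen in 23.2 against 15.1% and 17 against 13.5% of cells with no call (log2 0.08). Of the 32 genes of the type 1 list 26 were tested, 1 was higher and 0 lower, with a median log2 difference of 0.31 against 0.02 over all 7870 genes. Without the deep cells 9 were higher and 0 lower and the median was 0.44. The median was -0.06 in the F/F pool and 0.61 in the CD4-Cre pool, and 0.22 and 0.57 without the deep cells. By share of cells, 21 of the 26 tested were seen more often in members of both pools (80.8%), against 49.8% of all 7870 genes, members being the deeper cells. Lists with no call were also above that share, with 13 of 17 glycolysis genes and 15 of 23 of oxidative phosphorylation. Of 22 genes tested in the list of the interferon gamma receptor and its responses, edgeR and DESeq2 called 0 either way, 1 had an unadjusted p under 0.05 in edgeR, and the median was 0.03.

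**Figure D2:**
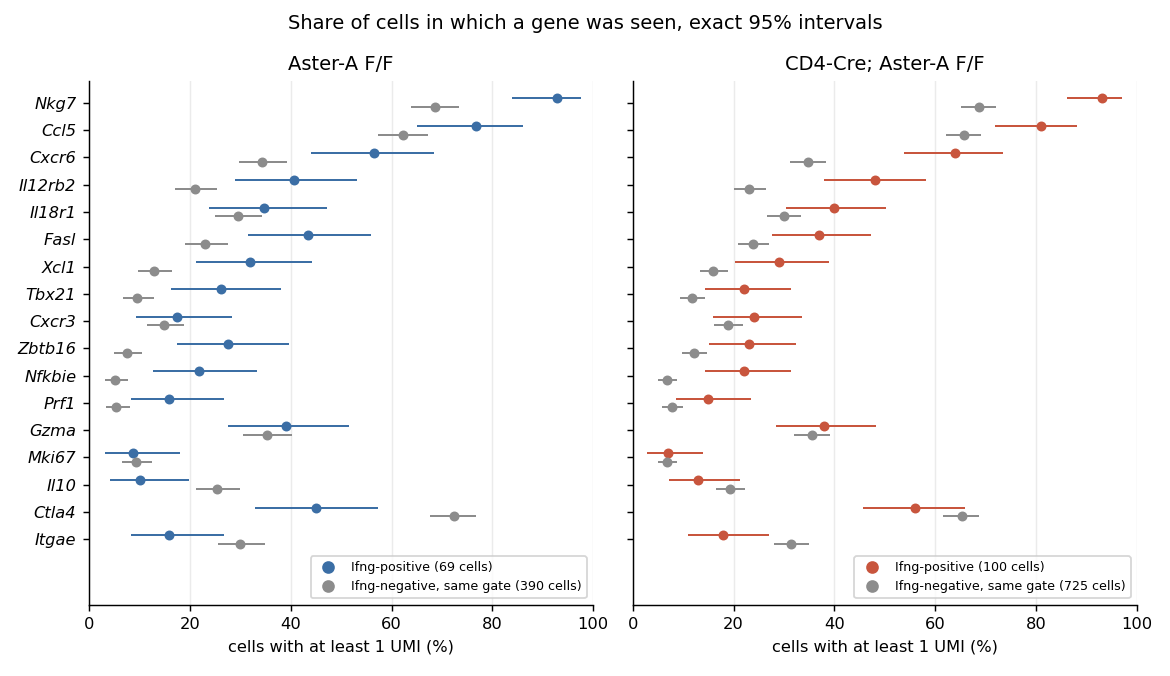
Share of cells with at least 1 UMI of each gene, with exact 95% intervals that cover counting error only, in members (coloured) and Ifng-negative cells (grey) of the F/F (left) and CD4-Cre pool (right). Nkg7, Cxcr6, Il12rb2, Tbx21, Zbtb16 and Nfkbie lay to the right in members of both pools, Mki67 and Gzma lay close together, and Ctla4, Itgae and Il10 lay to the left.

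The genes called higher with all cells were led by Xcl1, which attracts cross-presenting dendritic cells. Xcl1 had 606.3 CPM (F/F) and 187.4 CPM (CD4-Cre) in members, against 130.7 and 80.9 in negatives, and was seen in 31.9 against 12.8% and 29 against 16% of cells. Both member levels rested on few cells. In the F/F pool 1 member held 107 of the 267 Xcl1 UMIs and the third deep cell 86. In the CD4-Cre pool 1 member held 31 of 79. The F/F member with 107 had 15278 UMIs in all, so it stays in the fit without the deep cells, where F/F members held 180 Xcl1 UMIs. The log2 difference was 1.75 (adjusted p = 7.33e-06, edgeR) with all cells and 1.64 (adjusted p = 6.75e-20) without the deep ones.

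Nfkbie, an inhibitor of NF-κB, rose by 1.67 on the log2 scale (adjusted p = 0.0081, edgeR) and was spread over many cells. It was seen in 21.7 against 5.13% of F/F cells and 22 against 6.76% of CD4-Cre cells, and in 17.3 and 17.5% of B cells. Gramd3, another GRAM-domain gene but not an Aster gene, rose by 1.09 and was seen in 40.6 against 18.5% and 40 against 20.1%. Satb1, a chromatin organiser of T cells, rose by 1.02. Nfkbie, Gramd3 and Satb1 were also called without the deep cells.

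A second group of higher genes came from few cells. Cdc20, Hmmr, Tpx2, Ccnb2 and Cenpf, genes of mitosis, had log2 differences of 2.57, 2.19, 2.08, 1.56 and 1.74. In the F/F pool 1 cell held 70, 48, 70, 34 and 41% of their UMIs, and in the CD4-Cre pool 55, 39, 45, 48 and 56%. Of these 5, only Hmmr was called without the deep cells (log2 1.68, adjusted p = 0.00599, edgeR), at a log2 ratio of -1.07 in the F/F and 2.83 in the CD4-Cre pool, and Cdc20 was then no longer tested. The share of cells with Mki67 or Top2a was 14.5 against 14.6% in the F/F pool and 12 against 11.9% in the CD4-Cre pool, close in both pools. The mitotic genes were seen more often in members, such as Ccnb2 in 11.6 against 3.33% and 5 against 4.14% of cells. Of 22 proliferation genes tested, 4 were higher with all cells and 2 of 21 without the deep cells, and 19 were seen more often in members of both pools. Nrgn, Ccl1 and Crtam, called at 3.27, 2.84 and 2.66, were each seen in at most 4 members of a pool, and Nrgn and Crtam were also called without the deep cells.

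Genes of innate-like T cells were more frequent among members. Zbtb16, the PLZF gene, had 129.4 and 154.2 CPM in F/F and CD4-Cre members and 51.2 and 75.3 in negatives. Its log2 difference was 1.18 (adjusted p = 0.0128, edgeR) with all cells and 1.29 (adjusted p = 6.89e-08) without the deep cells. It was seen in 27.5 against 7.44% of F/F cells and 23 against 12.1% of CD4-Cre cells, and at 1500 UMIs per cell in 21.7 against 5.40% and 14 against 7.49%. The NK receptor genes Klrd1 (log2 1.4, adjusted p = 0.0278, edgeR) and Klrk1 (1.37, adjusted p = 0.0399) also rose, in 14.5 and 15% and in 8.7 and 9% of members. Of 10 innate-like genes tested 3 were higher and 0 lower, with a median of 0.63, and without the deep cells 5 were higher and with DESeq2 0. Over 12 alternatives Zbtb16 stayed higher in all and passed the threshold in 6, with log2 differences from 0.67 to 1.57 and adjusted p up to 0.998 (edgeR, DESeq2 in 1). The list of NK, ILC and mast cell genes summed to 286 and 560 CPM in members and 383 and 531 CPM in negatives, with 7 and 5 of its 14 genes at 0 in members.

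At least 1 UMI of Zbtb16, Klrk1, Klrd1, Tcrg-C1, Tcrg-C2 or Tcrg-C4 was present in 30 F/F members (43.5%) and 45 CD4-Cre members. Among negatives it was 22.3 and 25.7%. With all such cells left out, 39 and 55 members remained, 6 genes were higher and 31 lower, and the median of the type 1 list was 0.38. With these cells included, 28 genes were higher and 45 lower, and that median was 0.31. At this depth a cell without such a UMI can still be innate-like, and the part of innate-like cells in the type 1 median was not tested.

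Members with a Zbtb16 UMI differed in several genes from members without one, a split made after Zbtb16 was seen to rise and given here as a description. Tbx21 was seen in 42.1 against 20% of F/F and 47.8 against 14.3% of CD4-Cre members, and Ccr2, a receptor for inflammatory chemokines, in 42.1 against 8% and 26.1 against 14.3%. Cd4 was seen in 42.1 against 64% and 52.2 against 85.7%. Il10 was seen in 0 of 19 and 0 of 23 members with Zbtb16, against 14 and 16.9% of those without, and the integrin gene Itgae, which holds T cells at the epithelium, in 0 and 4.35% against 22 and 22.1%. Gzma was seen in 26.3 against 44% and 13 against 45.5%, while Nkg7 was seen in 91.3 to 94.7% of both kinds in both pools. These genes were picked after their values were seen. Of 24 genes compared in this way, 15 pointed the same way in both pools and 8 opposite ways, Cxcr3 among them at 10.5 against 20% (F/F) and 30.4 against 22.1% (CD4-Cre).

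**Figure D3:**
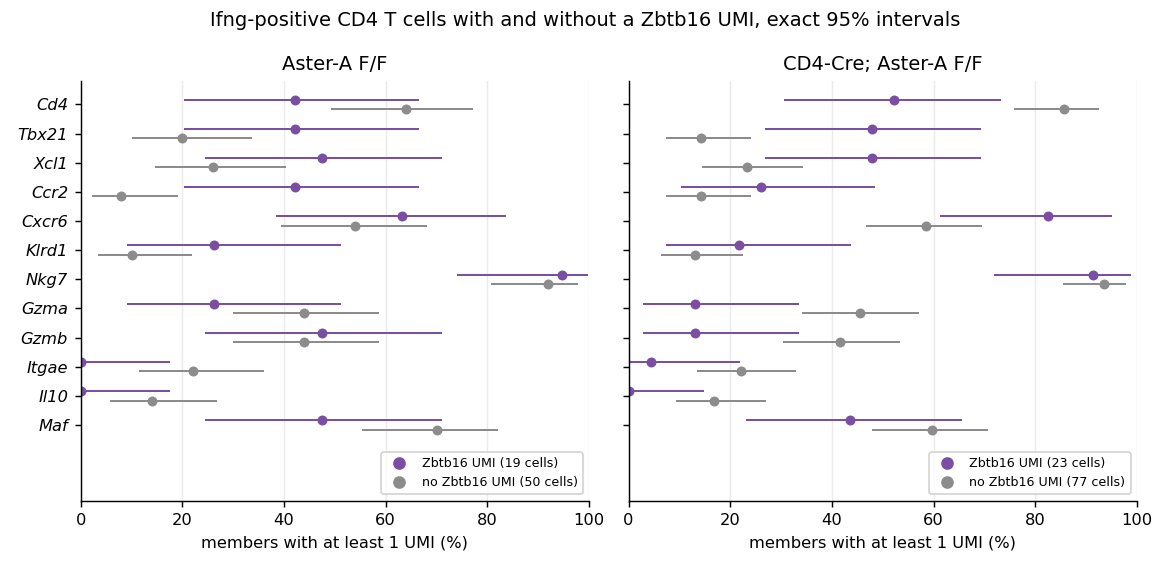
Share of members with at least 1 UMI of each gene, with exact 95% intervals, for members with a Zbtb16 UMI (purple, 19 F/F and 23 CD4-Cre cells) and without one (grey, 50 and 77 cells). Tbx21, Xcl1 and Ccr2 lay to the right and Cd4, Itgae and Il10 to the left in cells with Zbtb16 in both pools, while Gzmb did so only in the CD4-Cre pool.

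Cytotoxic genes gave a mixed picture. Of 15 tested, Klrd1 and Klrk1 were higher and Klrg1, an inhibitory receptor of short-lived effector and regulatory cells, was lower (log2 -2.68, adjusted p = 0.00117, edgeR). Without the deep cells these 3 had 1.45, 1.5 and -2.49, all called. Gzma, granzyme A, had 1349 and 2328 CPM in members and 1087 and 1208 in negatives. One deep F/F cell held 245 of the 594 Gzma UMIs of F/F members. Without the deep cells Gzma was called (log2 0.62, adjusted p = 3.57e-06, edgeR), yet the F/F log2 ratio was -0.02 and the CD4-Cre ratio 1.20. It was seen in 39.1 against 35.4% and 38 against 35.6% of cells, and in 23.3 and 26.1% of plasma cells, with 5884 and 5387 CPM in free RNA. Gzmb did not pass (log2 0.16), nor did Prf1, the perforin gene (log2 0.85, adjusted p = 0.75, edgeR). Prf1 was seen in 15.9 against 5.38% of F/F cells and 15 against 7.72% of CD4-Cre cells, and in 13.8 and 14.3% of plasma cells, whose medians were 17332.5 and 17244.5 UMIs.

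Genes of regulatory T cells were lower in members, although the gate had removed every cell with a Foxp3 UMI from both kinds of cell. Of 12 tested 7 were lower and 0 higher, with a median of -1.33, and without the deep cells 8 were lower with a median of -1.18. With all cells, DESeq2 called 1 of the 12. Ikzf2, the Helios gene, had 140.8 and 232.5 CPM in members and 429.0 and 507.5 in negatives (log2 -1.35, adjusted p = 0.000343, edgeR). Ctla4, an inhibitory receptor, fell by 1.05 (adjusted p = 0.00686, edgeR) and was seen in 44.9 against 72.3% of F/F and 56 against 65.2% of CD4-Cre cells, and in 71.7 and 69.4% of plasma cells. Il10, the anti-inflammatory cytokine gene, had 54.5 and 90.2 CPM in members and 185.0 and 171.0 in negatives (log2 -1.31, adjusted p = 0.00686, edgeR), and was seen in 10.1 against 25.4% and 13 against 19.3% of cells. The Il10 shares in members were near those of B cells, 13.3 and 10.8%. Capg and Areg fell by 1.48 and 1.91 on the log2 scale. Without the deep cells Ikzf2, Ctla4, Il10, Capg and Areg had -1.19, -0.95, -1.18, -1.44 and -1.66, all called. Il1rl1, the interleukin 33 receptor gene, was seen in 0 of 69 and 0 of 100 members, which allows up to 4.35 and 3% of cells with a UMI (3 counts) and does not limit the share expressing it, and in 2.56 and 4.14% of negatives. Izumo1r and Tnfrsf9, genes of activated and regulatory T cells, were lower as well, at -1.74 and -1.40.

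With the negatives that held an Il10 UMI also left out, Il10 itself, removed from the reference by that choice, was the 1 gene called, and no other gene passed the edgeR test in either direction (291 at an unadjusted p under 0.05). Xcl1, Nfkbie, Zbtb16 and Ikzf2 then had log2 differences of 1.38, 1.63, 0.78 and -0.90, none called. In that fit the median of the type 1 list was 0.23.

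Genes of antigen-presenting cells were also among the lower genes. Apoe, Lyz2, Cd74, H2-Ab1, H2-Aa and H2-Eb1, markers of macrophages, dendritic and B cells, had log2 differences of -2.93, -2.93, -1.93, -2.26, -2.11 and -1.79 with all cells and of -2.74, -2.88, -1.99, -2.29, -1.91 and -1.75 without the deep cells. Their shares of cells did not all fall with their levels. Cd74 was seen in 37.7 against 43.3% of F/F cells and 38 against 41.5% of CD4-Cre cells. Apoe was seen in 11.6 against 12.8% and 15 against 12.4%, and Lyz2 in 5.8 against 4.62% and 4 against 6.62%. H2-Eb1, H2-Aa and H2-Ab1 were seen more often in CD4-Cre members, in 21, 17 and 17 of 100. Among the 725 CD4-Cre negatives these genes were seen in 80, 101 and 118 cells. In the F/F pool H2-Eb1 and H2-Ab1 were seen more often in members and H2-Aa less often. Cd74 was also seen in 39.7 and 38.3% of CD8 T cells. In cells of 2000 to 8000 UMIs the log2 differences were -1.10 for Apoe (adjusted p = 0.00549, edgeR), -0.74 for Lyz2, -0.40 for Cd74, -0.20 for H2-Ab1, 0.029 for H2-Aa and 0.23 for H2-Eb1, and of these 6 only Apoe was called. Myeloid markers moved with these genes, with 4 of 5 tested myeloid genes lower, and their part in the result was not tested. Of other lower genes, Nckap5, Plcl1, Neb, Itgav and Frmd5 had log2 differences of -3.91, -3.89, -2.49, -1.65 and -2.81, and all 5 were also called without the deep cells. Itgav, an integrin chain that activates TGF-β, was seen in 27.5 against 37.2% and 16 against 36.7% of cells.

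**Figure D4:**
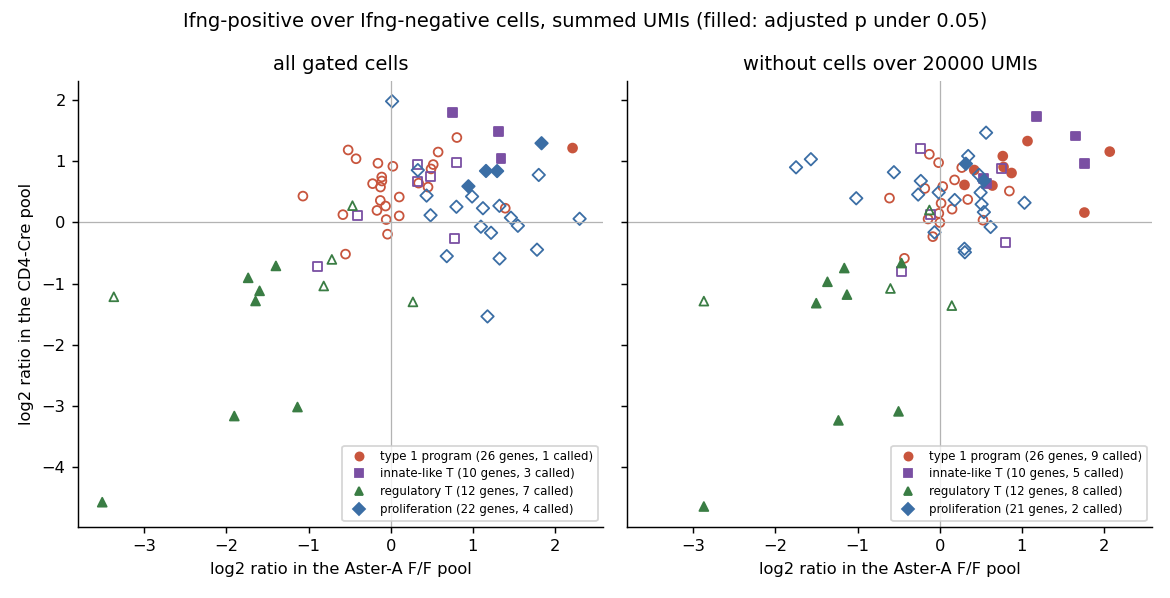
Log2 ratio of members over Ifng-negative cells in the F/F pool (across) and the CD4-Cre pool (upward) for the genes of 4 lists, with all cells (left) and without cells over 20000 UMIs (right); filled symbols passed the edgeR test. Regulatory genes lie low in both pools, with 7 called on the left and 8 on the right, while the type 1 genes go from 1 called to 9.

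Several lists showed no call. Cholesterol synthesis (23 genes tested), sterol transport with the Aster genes (12), LXR targets and fatty acid synthesis (10), glycolysis (17), oxidative phosphorylation (23), type I interferon response (17) and type 17 genes (12) had 0 genes higher and 0 lower, with medians between -0.24 and 0.20, and 0 calls also without the deep cells and with DESeq2. At an unadjusted p under 0.05, edgeR had 1 type 17 gene and 0 in the 6 other lists. The gate had removed every cell with an Il17a, Il17f or Il22 UMI from both kinds of cell. The type 17 result thus describes only the cells left. Among gut homing genes, S100a4 and S100a6 were lower (log2 -1.53 and -1.15, and -1.92 and -1.51 without the deep cells), and Itgae, seen in 15.9 against 30% and 18 against 31.4% of cells, was called only without the deep cells (log2 -0.86, adjusted p = 0.00435, edgeR). Il21, a helper cytokine gene, was seen in 7.25 against 1.28% and 6 against 1.1% of cells and in 0 B cells, but was not called (log2 2.17, adjusted p = 0.204, edgeR).

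Members with more Ifng were compared with members with 1 UMI as a description. Tbx21 was seen in 36.4% of the 22 F/F members with 2 or more Ifng UMIs and 21.3% of the 47 with 1, and in 25 and 20.3% of CD4-Cre members. The exact intervals overlapped in both pools. Il12rb2 went opposite ways, at 31.8 against 44.7% in the F/F pool and 61.1 against 40.6% in the CD4-Cre pool.

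Between the pools, members were a similar share of the gate but a larger share of all cells in the CD4-Cre pool. The ratio of their share of gated cells was 0.806 (0.607 to 1.07), and at 1500 UMIs per cell, with 31 of 458 and 49 of 821 cells, it was 0.882 (0.571 to 1.36). Of all kept cells they were 0.548 and 0.798%, a ratio of 1.46 (1.07 to 1.98), and of cells with Cd3 and Trac 4.21 and 3.99%. Cells with Cd3 and Trac were themselves 1640 of 12594 in the F/F and 2508 of 12526 in the CD4-Cre library. These intervals cover counting error only and leave out variation between mice. Ifng, a gene of the rule, stood at 268 CPM (F/F) and 417.6 CPM (CD4-Cre) in members, a ratio of 1.56 (1.23 to 1.98) with all members and 1.36 (1.06 to 1.76) without the deep cells.

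The floxed gene gave no check of the labels. Gramd1a (chr7:31130127-31155896, minus strand, GRCm38) had 17 UMIs in F/F members and 26 in CD4-Cre members, 38.6 and 61.7 CPM, a ratio of 1.6 (0.835 to 3.14) and of 1.21 (0.623 to 2.41) without the deep cells. In Ifng-negative cells the ratio was 0.743. A 3′ library can count transcripts that lack an inner exon, so Gramd1a UMIs do not show whether the gene was deleted. Gramd1b, its closest relative in T cells, had 90.8 and 125.8 CPM (ratio 1.38, 0.901 to 2.14, and 1.31 without the deep cells), and Gramd1c 0 and 2 UMIs.

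Of 4101 genes with at least 30 UMIs in members, 889 (21.7%) were at least 1.5-fold higher and 629 (15.3%) at least 1.5-fold lower in the CD4-Cre pool. Without the deep cells it was 521 (14.3%) and 279 (7.64%) of 3650. Each gene is therefore given with all members and without those cells.

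Mif and a set of genes picked here for their low ratios were lower in CD4-Cre members. Mif, a cytokine gene, had 611 CPM (F/F) and 147 CPM (CD4-Cre), a ratio of 0.241 (0.18 to 0.318) and of 0.365 (0.265 to 0.499) without the deep cells. Hspd1, the mitochondrial chaperonin, had ratios of 0.18 and 0.346, the nuclear transport gene Ran 0.311 and 0.552, and Lyar, a nucleolar gene, 0.149 and 0.371. In Ifng-negative cells, deep ones included, the ratios of Mif, Hspd1, Ran and Lyar were 0.96, 0.92, 1.07 and 0.828. The 3 deep cells held 143 of the 269 Mif UMIs. Phgdh, Rps27l, Dctpp1, Nhp2 and Pa2g4 went from 0.212, 0.226, 0.242, 0.261 and 0.229 to 0.464, 0.471, 0.396, 0.512 and 0.540, and Tpi1 and Ppa1 had under 30 UMIs left. In negatives Phgdh, Rps27l, Dctpp1, Nhp2 and Pa2g4 had ratios of 1.01, 0.744, 1.01, 0.955 and 1.11. Tpi1 and Ppa1 had 0.753 and 0.802 there. The proliferation list did not keep a direction between the pools: 13 of 18 genes were 1.5-fold lower with a median log2 ratio of -0.89 with all members, and 2 of 12 lower and 4 higher with a median of 0.25 without the deep cells.

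Xcl1 was also lower in CD4-Cre members, at 0.309 (0.237 to 0.399) and 0.326 (0.247 to 0.427) without the deep cells. Without the Xcl1 UMIs of the 3 cells of each library richest in it, over unchanged totals of members, the ratio was 0.781. Xcl1 was seen in 31.9 and 29% of members. Ccl4 had 0.277 and 0.209 with 34 and 9 UMIs, and was seen in 8.7 and 8% of members. However, 1 cell held 79.4% of the Ccl4 UMIs of F/F members. Without the 3 richest cells of each library, in the same way, the Ccl4 ratio was 1.64. That value rests on the few UMIs left of these 34 and 9 and has no interval, so it shows no direction.

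Other genes were higher in CD4-Cre members. Casp4, an inflammatory caspase, had 36.3 and 140 CPM, a ratio of 3.85 (2.19 to 7.17) and of 3.65 (1.94 to 7.46) without the deep cells, and was seen in 13 and 29% of members. Gpr18, a lipid-sensing receptor of intestinal T cells, had ratios of 5.52 and 3.92, Man2a2 4.93 and 4.90, Atg2a 3.70 and 2.89, Zfp800 3.26 and 4.37, Epas1 3.88 and 2.76, Lyst 2.90 and 2.06, and Mbnl1 2.32 and 1.82. In Ifng-negative cells Casp4, Gpr18, Man2a2, Atg2a and Zfp800 had ratios of 1.15, 1.22, 0.871, 0.781 and 1.20, while Epas1, Lyst and Mbnl1 had 2.26, 1.59 and 1.77. In negatives the first 5 thus lay within 1.5-fold of equal, and the last 3 did not. H2-Aa (5.08 and 4.21), Bcas3 (3.34 and 2.38) and Lilr4b (3.83 and 2.72) were also higher, with ratios of 0.75, 1.23 and 0.714 in Ifng-negative cells. F/F members held only 7 H2-Aa UMIs, and 1 cell held 47.1% of those of CD4-Cre members. Whether members and negatives differed in these ratios was not tested.

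Of the type 1 genes, Cxcr3 had 36.3 and 99.7 CPM, a ratio of 2.74 (1.51 to 5.23) and of 2.23 (1.19 to 4.41) without the deep cells. Il18r1 had ratios of 2.47 (1.80 to 3.43) and 1.79 (1.30 to 2.49) and Gzma 1.73 and 2.09. For Tbx21 they were 1.64 (1.0 to 2.74) and 1.31 (0.782 to 2.23), for Il12rb2 1.57 and 1.31, for Nkg7 1.43 and 1.13, and for Ccl5 1.44 and 1.04. Over the 24 type 1 genes counted, 8 were 1.5-fold higher and 2 lower with a median log2 ratio of 0.52 against 0.14 over all genes. Without the deep cells it was 3 and 2 of 23 with a median of 0.17 against 0.09.

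Pancreatic and gastric transcripts moved between the pools as free RNA did. Ctrb1, a pancreatic protease gene, was seen in 42.0% of F/F members and 0 of 100 CD4-Cre members (which allows up to 3% of cells with a UMI by 3 counts), while plasma cells had it in 39.5% (F/F) and 0.045% (CD4-Cre). In barcodes of 10 to 100 UMIs it had 227 and 39.1 CPM. Tff2, a gastric gene, went the other way, in 15.9 and 60% of members and at 80.2 and 469 CPM in free RNA. Of 4101 genes, 387 higher and 296 lower ones met the limits used for naming between pools (interval bound, share of members and richest cells). Of these, 7 higher and 15 lower ones moved with free RNA in this way. Without the deep cells, 127 higher and 111 lower of 3650 genes passed the interval and share limits, with shares from all members and the limit on richest cells not applied.

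**Figure D5:**
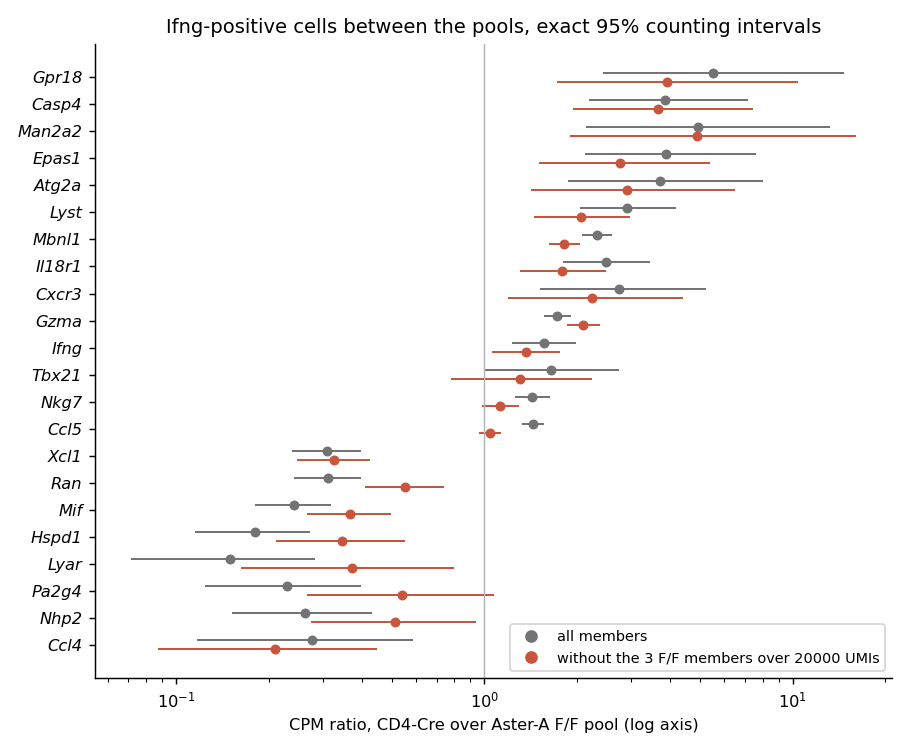
CPM ratio of CD4-Cre over F/F members with exact 95% counting intervals on a log axis, with all members (grey) and without the 3 F/F members over 20000 UMIs (red). Mif, Ran, Hspd1, Lyar and Nhp2 move toward 1 but stay below it, and Ccl5 and Nkg7 come to 1.04 and 1.13. The ratios of Casp4, Gpr18 and Man2a2 stay above 3, with lower interval bounds of 1.94, 1.73 and 1.90 without those 3 members.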

How the data were processed

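Single-cell RNA was captured with a 10x Genomics 3′ kit, per the labels' protocols. The deposited UMI counts, whole numbers for 32285 genes in unfiltered matrices, were made with Cell Ranger 7.2.0 on mm10 (GRCm38) according to the submitters' processing notes, which also name Seurat 5.0.1 for steps not used here. Kept cells, the gate and the thresholds are given in the report. The members and gene lists were chosen with earlier results of these data known.

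UMIs were summed per pool and Ifng state and fitted with edgeR 4.0.16 (R 4.3.3, TMM, filterByExpr, quasi-likelihood test, design of library plus Ifng state). CPM is relative to all UMIs of a sum. Ratios carry exact binomial 95% intervals and shares Clopper-Pearson intervals. Both cover counting error only and count each UMI as its own draw, also where 1 cell gave many. Per-library log2 ratios add 0.5 counts. A count of 0 allows 3 counts. Scripts were tested on simulated data.

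Genes named from the fit were up to 12 per direction with the smallest adjusted p and the same direction in both pools, leaving out rule, immunoglobulin, receptor segment and mitochondrial genes. Between pools they were up to 12 per direction with at least 30 UMIs, seen in 15% of members of 1 pool, an interval bound at least 0.2 from 0 (log2) and a ratio that kept its side of 1 without the 3 richest cells of each library. For that last limit the gene's UMIs in those cells were left out, while the totals of members stayed unchanged. Those 3 cells are a larger part of 69 F/F than of 100 CD4-Cre members. Type 1, cytotoxic, helper and Aster genes of a fixed set were always named, except for results not reported here. Satb1, Capg, Areg, Il1rl1, Izumo1r, Tnfrsf9, Ctla4, Klrg1, Klrd1, Klrk1, S100a4, S100a6, Ccr2, Itgae and Txk were picked from the called or listed genes after their values were seen. Alternatives covered the Ifng threshold, coreceptor term, mitochondrial, immunoglobulin and depth limits, other-lineage and innate-like cells, reference cells, tool (DESeq2 1.42.0), filter, block and scaling. Trgc1 and Trgc2 of the planned innate-like filter are not symbols of the matrices. Positions come from GENCODE M21 on GRCm38.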

Additional observations from a re-analysis of the deposited data

Results flagged for a closer look

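In 2 type 1 genes the difference between members and Ifng-negative cells pointed opposite ways in the 2 pools, and this difference between the pools was not tested. For Il18r1 the ratio of members over negatives was 0.741 in the F/F pool and 2.05 in the CD4-Cre pool, a difference of 1.47 on the log2 scale. For Ccl5 the ratios were 0.927 and 1.6, a difference of 0.787. Without cells over 20000 UMIs the F/F log2 ratios were -0.01 for Il18r1 and 0.30 for Ccl5, so that Ccl5 then pointed the same way in both pools.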

How the results depend on the processing

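The counts of genes that differed between members and Ifng-negative cells (28 higher, 45 lower) moved with most choices. They were 14 and 8 with at least 2 Ifng UMIs, 9 and 21 with a Cd4 UMI required, 5 and 22 with Icos or Cd40lg required, 60 and 83 without cells over 20000 UMIs (chosen after seeing the data), 1 (Il10 itself) and 0 with Il10-free reference cells and 1 and 6 with DESeq2. The higher count was 15 under 5% immunoglobulin, 62 in cells of 2000 to 8000 UMIs and 6 without innate-like cells. Positive and negative cells are paired by pool: with no replicate block 0 genes were higher and 0 lower, with 482 at an unadjusted p under 0.05. The cause of these moves was not tested.

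Genes past 1.5-fold between pools (889 and 629) numbered 459 and 192 in cells of 2000 to 8000 UMIs, 521 and 279 without cells over 20000 UMIs, 440 and 340 with at least 60 UMIs, 265 and 257 at 2-fold, and 1444 and 246 without the 3 richest cells per gene. Leaving out 3 cells takes a larger part of 69 F/F than of 100 CD4-Cre members. What that did to these counts was not tested. The lower count was 399 with at least 2 Ifng UMIs and 405 from mean CPM of single cells. The ratio of member shares was 1.46 over all kept cells. The type 1 median was -0.06 in the F/F library alone and 0.61 in the CD4-Cre library alone, and 0.23 to 0.48 under the other alternatives. H2-Aa (0.029) and H2-Eb1 (0.23) changed sign in cells of 2000 to 8000 UMIs, H2-Eb1 (0.072) without other-lineage cells, and Il10 (9.36) where it had been removed from the reference. With 1 pool per genotype and a median near 4100 UMIs in F/F members, depth limits what can be said of low genes.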
